A study of Mus musculus with 9 samples.

Results

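The transcript levels of 10 genes that mark epithelial or mesenchymal identity were followed in mouse epidermis lacking the epithelial splicing regulators Esrp1 and Esrp2. The genes were taken by symbol from a table of 38203 genes, and each symbol had 1 row. They comprise 3 epithelial surface genes (Cdh1, Cdh3 and Epcam), 3 mesenchymal genes (Cdh2, Vim and Fn1) and 4 transcription factors that drive the epithelial-mesenchymal transition (Zeb1, Zeb2, Snai2 and Twist1). The comparison asks whether loss of the regulators shifts the total level of these transcripts, as distinct from their splicing.

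Trunk epidermis of individual E18.5 embryos on a mixed, back-crossed C57BL6/129Sv background was loosened from the dermis with trypsin and peeled off by hand, and its polyadenylated RNA was sequenced in 9 libraries. WT was represented by 2 libraries, KO (Esrp1-/- Esrp2+/+) by 3, KH (Esrp1-/- Esrp2+/-) by 2 and DKO (Esrp1-/- Esrp2-/-) by 2, and libraries are named here by genotype and number. The Esrp1 allele is a germline deletion of internal exons made with Zp3-Cre, and the Esrp2 allele carries a LacZ and neomycin cassette, so the losses are not confined to the epidermis. Levels are given in FPKM, a count of fragments scaled to the length of the transcript and to the mapped fragments of the library. The low values of genes with a single annotated transcript are mostly whole multiples of what 1 fragment is worth in their library, and these steps place the depth at about 23600000 to 94000000 fragments a library.

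The targeted genes were measured first. Esrp2 was at 118 and 136 FPKM in the WT libraries, 88.1, 88.4 and 131 FPKM across the KO libraries, 38.6 and 89.5 FPKM in the KH libraries and 0.0843 and 0.0463 FPKM in the DKO libraries. KH 2, labelled as heterozygous for Esrp2, was thus at the level of KO 1 and KO 2. One description of the controls lists them as Esrp2-/-, against the label WT, and both WT libraries carried Esrp2 RNA. Esrp1 RNA was lower in all 7 knockout libraries (18.2 to 55.1 FPKM) than in WT (119 and 142 FPKM). The gene total does not show what remained. From its mapped reads the paper reports that this was RNA spliced across the deleted exons, which would not encode a functional protein. The libraries had the markers of epidermis, with Krt5, a basal keratin, averaging 2728 FPKM and Krt10, a keratin of the layers above, averaging 20280 FPKM. Xist, the transcript of the inactive X chromosome, exceeded 1 FPKM in 4 libraries, WT 2 and all 3 of KO, so that a comparison of KO with KH or DKO cannot be told apart from one of high with low Xist.

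Epithelial cells are held together by E-cadherin (Cdh1), whose extracellular domains bind those of the neighbouring cell while its tail is anchored through catenins to actin. P-cadherin (Cdh3) does the same in basal keratinocytes and the hair follicle, and the surface protein Epcam is a broad epithelial antigen. In the epithelial-mesenchymal transition Zeb1, Zeb2, Snai2 and Twist1 repress E-cadherin, the Zeb and Snai proteins by binding E-boxes, and the intermediate filament vimentin (Vim), fibronectin (Fn1) and N-cadherin (Cdh2) are induced. Esrp1 and Esrp2 are themselves characteristic of epithelia and are repressed when cells undergo this transition. In skin, Vim, Zeb2 and Snai2 are also made outside that transition, for example by melanocytes, dermal fibroblasts, Langerhans cells and other leukocytes (Vim, Zeb2) or by basal keratinocytes (Snai2).

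To show the letters these factors read, the promoters of the 2 members whose DKO libraries were nearly equal and both above WT were taken from an extract of RefSeq on GRCm38.p6, the release of mm10, in which 4 of the 10 genes were matched (Epcam, Vim, Zeb2 and Twist1). Each sequence is the 250 bases before the annotated start, in the direction of transcription, and capitals mark CACCTG or its reverse complement CAGGTG, a core E-box.
Epcam, chr17:87635729-87635978, plus strand: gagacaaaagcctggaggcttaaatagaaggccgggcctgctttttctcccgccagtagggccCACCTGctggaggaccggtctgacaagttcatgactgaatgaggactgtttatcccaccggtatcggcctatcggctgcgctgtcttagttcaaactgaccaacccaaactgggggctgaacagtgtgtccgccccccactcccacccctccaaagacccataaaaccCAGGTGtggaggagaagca
Vim, chr2:13574061-13574310, plus strand: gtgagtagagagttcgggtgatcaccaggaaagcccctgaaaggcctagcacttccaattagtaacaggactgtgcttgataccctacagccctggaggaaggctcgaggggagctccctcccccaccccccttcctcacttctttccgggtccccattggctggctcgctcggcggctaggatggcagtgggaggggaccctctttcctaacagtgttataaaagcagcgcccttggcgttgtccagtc
The Epcam window held the E-box at 2 places, beginning 187 and 19 bases before the start, and the Vim window held it at 0 places. Over all 32851 promoter windows of this length, 17.2% held it on either strand. These are matches of letters only, and no binding was measured.

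Across the 10 genes, the level in these epidermal libraries ran from that of an abundant structural transcript to a handful of fragments. Cdh1 averaged 126 FPKM over the 9 libraries, followed by Vim at 53.0, Epcam at 43.6, Cdh3 at 20.1, Fn1 at 10.1, Snai2 at 8.51, Zeb2 at 0.765, Zeb1 at 0.129, Twist1 at 0.112 and Cdh2 at 0.0751 FPKM. Each gene was above the next in all 9 libraries except between neighbours whose levels crossed: Vim was above Epcam in 7 libraries, Fn1 above Snai2 in 5, Zeb1 above Twist1 in 7 and Twist1 above Cdh2 in 6. Thus Vim, a mesenchymal marker, was the member with the second highest average, whereas N-cadherin was at the floor. Cdh1 exceeded Cdh2 by 1048-fold (KH 1) to 4219-fold (WT 1) within a library, on the FPKM scale, which corrects for length.

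**Figure D1:**
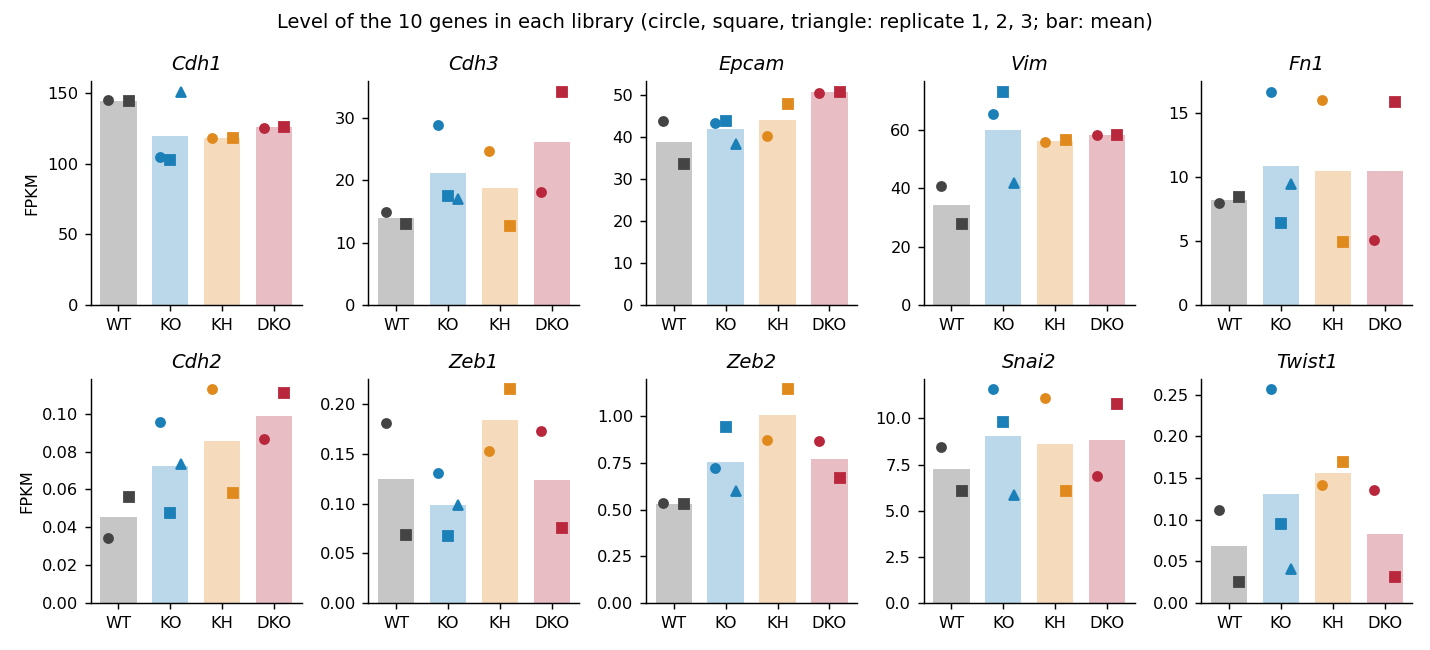
Level of each of the 10 genes in FPKM (y axis, from 0, a different scale for each gene) in WT, KO, KH and DKO; points are libraries (circle, square and triangle for replicates 1, 2 and 3) and bars are means of 2 libraries (3 for KO). Vim and Zeb2 were above both WT libraries in all 7 knockout libraries, while Cdh3, Fn1 and Snai2 scattered widely within each knockout genotype.

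Among the adhesion genes, E-cadherin transcript stayed abundant in every genotype. Cdh1 was at 145 and 144 FPKM in the WT libraries, 105, 103 and 151 FPKM across the KO libraries, 118 and 118 FPKM in the KH libraries and 125 and 126 FPKM in the DKO libraries. The KH and DKO libraries lay below both WT libraries, but KO 3 lay above them. The mean of DKO, 126 ± 0.783 FPKM (SD, n = 2), was 87.0% of the WT mean of 145 ± 0.684 FPKM (n = 2), and those of KH and KO were 81.9% and 82.7%. The fitted difference of DKO from WT was -0.20 ± 0.23 (SE) on the log2 scale, with a 95% interval of -0.72 to 0.32 and an adjusted p of 0.717. The interval thus excluded a 2-fold fall of Cdh1 in DKO, and likewise in KH (-0.81 to 0.24) and KO (-0.77 to 0.18), each interval being unadjusted for the number of genes. Without KO 3 the difference in KO was -0.475.

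P-cadherin was higher on average in each knockout genotype, with a wide scatter. Cdh3 was at 14.96 and 13.1 FPKM in the WT libraries, 28.9, 17.5 and 17.1 FPKM across the KO libraries, 24.8 and 12.7 FPKM in the KH libraries and 18.1 and 34.2 FPKM in the DKO libraries. All KO and DKO libraries were above both WT libraries, whereas KH 2 was below them. The DKO mean was 1.87 times the WT mean, the largest ratio among the 3 epithelial genes, but the 2 DKO libraries themselves differed 1.89-fold. The log2 difference was 0.79 ± 0.40 with a 95% interval of -0.12 to 1.71 (adjusted p = 0.418), and it was 0.35 without DKO 2 and 1.23 without DKO 1.

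Cdh3 and Cdh1 lie side by side on chromosome 8, at chr8:106510913-106556908 and chr8:106603351-106670246 in the deposited mm10 coordinates, both on the plus strand and 46442 bases apart. Esrp2 is on the same chromosome, 372387 bases from Cdh3 and 464825 bases from Cdh1, so the 2 cadherin genes are linked to the targeted allele, which was made in C57BL/6N cells. Of 64 other tested genes within 1000000 bases of Esrp2, 1 was called in DKO vs WT, 1810019D21Rik, whose deposited locus overlaps that of Esrp2. Of the 62 that do not overlap it, Cdh3 and Cdh1 among them, 0 were called by limma, against 0.728% of all genes. At an unadjusted p below 0.05 there were 0 of the 62, against 13.8% of all genes. Their median log2 difference was 0.09, against 0.02 over all genes. Whether the linked allele touches either cadherin was not tested.

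Epcam varied little among embryos. It was at 43.9 and 33.6 FPKM in the WT libraries, 43.4, 43.9 and 38.4 FPKM across the KO libraries, 40.2 and 47.8 FPKM in the KH libraries and 50.5 and 50.8 FPKM in the DKO libraries. Both DKO libraries were above both WT libraries and above all the KO and KH libraries, while KO and KH overlapped WT. The DKO mean was 1.31 times that of WT (log2 difference 0.39 ± 0.20, 95% interval -0.07 to 0.85, adjusted p = 0.423), and the difference was 0.20 without WT 2.

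Vimentin was the mesenchymal gene with the clearest separation of libraries. Vim was at 40.6 and 27.9 FPKM in the WT libraries, 65.2, 73.0 and 41.7 FPKM across the KO libraries, 55.8 and 56.4 FPKM in the KH libraries and 58.0 and 58.1 FPKM in the DKO libraries. All 7 knockout libraries lay above both WT libraries, although KO 3 exceeded WT 1 by little. The mean was 34.3 ± 8.97 FPKM in WT and 1.75 times as high in KO, 1.64 times in KH and 1.69 times in DKO, without an order by the number of Esrp2 alleles lost. The log2 difference was 0.78 ± 0.26 in KO (adjusted p = 0.853), 0.72 ± 0.29 in KH (adjusted p = 0.980) and 0.77 ± 0.29 in DKO (adjusted p = 0.298). The 95% interval excluded 0 in each (0.18 to 1.38, 0.06 to 1.38 and 0.11 to 1.42), but none passed the adjustment over 16897 genes, and the 3 comparisons share the same WT libraries. Without WT 2 the differences were 0.51 in KO, 0.46 in KH and 0.51 in DKO.

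Fibronectin, in contrast, had no common direction. Fn1 was at 8.03 and 8.43 FPKM in the WT libraries, 16.7, 6.45 and 9.51 FPKM across the KO libraries, 16.1 and 4.92 FPKM in the KH libraries and 5.12 and 15.9 FPKM in the DKO libraries. The libraries of a knockout genotype fell on both sides of WT, and the 2 of KH differed 3.27-fold. The log2 difference of DKO from WT was 0.14 ± 0.62 (95% interval -1.27 to 1.55, adjusted p = 0.940), so a 2-fold change in either direction was not detectable here.

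N-cadherin remained close to the limit of detection. Cdh2 ranged from 0.0344 FPKM (WT 1) to 0.113 FPKM (KH 1), and it rested on about 4.8 fragments (WT 1) to 33.5 fragments (KO 3, the deepest library) when its longest transcript is taken as its length. It was at 0.0344 and 0.0560 FPKM in WT and at 0.0867 and 0.111 FPKM in DKO, where both libraries were above WT, and its highest genotype average fell short of the 0.1 FPKM needed for the test. Without that filter its log2 difference in DKO vs WT was 0.07 ± 0.03 (adjusted p = 0.446), on a scale where the pseudocount of 1 FPKM hides most of the ratio of such a low gene.

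Of the repressors, the 2 Zeb genes differed in level and in pattern. Zeb2 was at 0.533 and 0.529 FPKM in the WT libraries, 0.725, 0.945 and 0.597 FPKM across the KO libraries, 0.871 and 1.14 FPKM in the KH libraries and 0.869 and 0.672 FPKM in the DKO libraries. As for Vim, all 7 knockout libraries were above both WT libraries, and KO 3 was the lowest of them. The mean was highest in KH, at 1.90 times WT, and not in DKO, at 1.45 times. The log2 difference was 0.39 ± 0.14 in KH (adjusted p = 0.980), 0.21 ± 0.14 in DKO (adjusted p = 0.542) and 0.19 ± 0.13 in KO (adjusted p = 0.853). It was 0.13 in DKO without DKO 1 and 0.12 in KO without KO 2.

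Zeb1 rested on about 10.5 to 53.7 fragments a library. It was at 0.181 and 0.0685 FPKM in the WT libraries, 0.131, 0.0672 and 0.0985 FPKM across the KO libraries, 0.153 and 0.215 FPKM in the KH libraries and 0.173 and 0.0751 FPKM in the DKO libraries. Each knockout genotype overlapped WT, whose 2 libraries alone spanned a 2.64-fold range, while both KH libraries were above all 3 KO libraries. Twist1 was lower still, at 0.111 and 0.0256 FPKM in WT and between 0.0309 and 0.256 FPKM in the knockout libraries, or about 2.1 to 15.6 fragments. Its KH libraries (0.141 and 0.170 FPKM) were above both WT libraries, while KO and DKO had libraries within the WT range and 1 library each above it, KO 1 at 0.256 and DKO 1 at 0.135 FPKM. At such counts the depth does not allow a statement on change in Zeb1 or Twist1.

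Snai2, the repressor with a known place in basal keratinocytes, was the most abundant of the 4. It was at 8.46 and 6.07 FPKM in the WT libraries, 11.6, 9.81 and 5.84 FPKM across the KO libraries, 11.1 and 6.07 FPKM in the KH libraries and 6.90 and 10.8 FPKM in the DKO libraries. Each knockout genotype overlapped WT, and the log2 difference in DKO was 0.24 ± 0.38 (95% interval -0.63 to 1.11, adjusted p = 0.803).

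Taking the 10 genes as a set, 0 of the 9 that entered limma's test were called in any of the 6 comparisons, a call needing an adjusted p below 0.05 and genotype averages more than 2-fold apart in FPKM. Over all genes tested, the share called was 0.728% in DKO vs WT, 0.0296% in KH vs WT, 0.0296% in KO vs WT, 0.639% in DKO vs KO, 0.426% in DKO vs KH and 0% in KH vs KO, and 0 of 9 members is read against these shares. Leaving out 1 library at a time moved the number of genes called from 123 to between 54 and 152 in DKO vs WT, from 5 to between 1 and 33 in KH vs WT, from 5 to between 0 and 17 in KO vs WT, from 108 to between 62 and 130 in DKO vs KO, from 72 to between 43 and 102 in DKO vs KH and from 0 to between 0 and 21 in KH vs KO. A member that was not called is not shown to be at the same level. The targeted Esrp1, lower in all 7 knockout libraries, was itself not called by limma. Its log2 difference from WT was -1.66 in DKO (adjusted p = 0.142), -2.00 in KH (adjusted p = 0.693) and -2.15 in KO (adjusted p = 0.375). At an unadjusted p below 0.05, 1 member stood out in DKO vs WT (Vim), 2 in KH vs WT (Vim and Zeb2) and 1 in KO vs WT (Vim), and 0 in the comparisons between knockout genotypes. The share of all genes below that p was 13.8% in DKO vs WT, 3.72% in KH vs WT, 4.53% in KO vs WT, 6.8% in DKO vs KO, 5.71% in DKO vs KH and 1.09% in KH vs KO. Among knockout genotypes the log2 differences of the 9 members ran from -0.20 to 0.47. The median log2 difference of the 9 members in DKO vs WT was 0.21 and that of all genes 0.02, and the median absolute differences were 0.207 and 0.235.

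**Figure D2:**
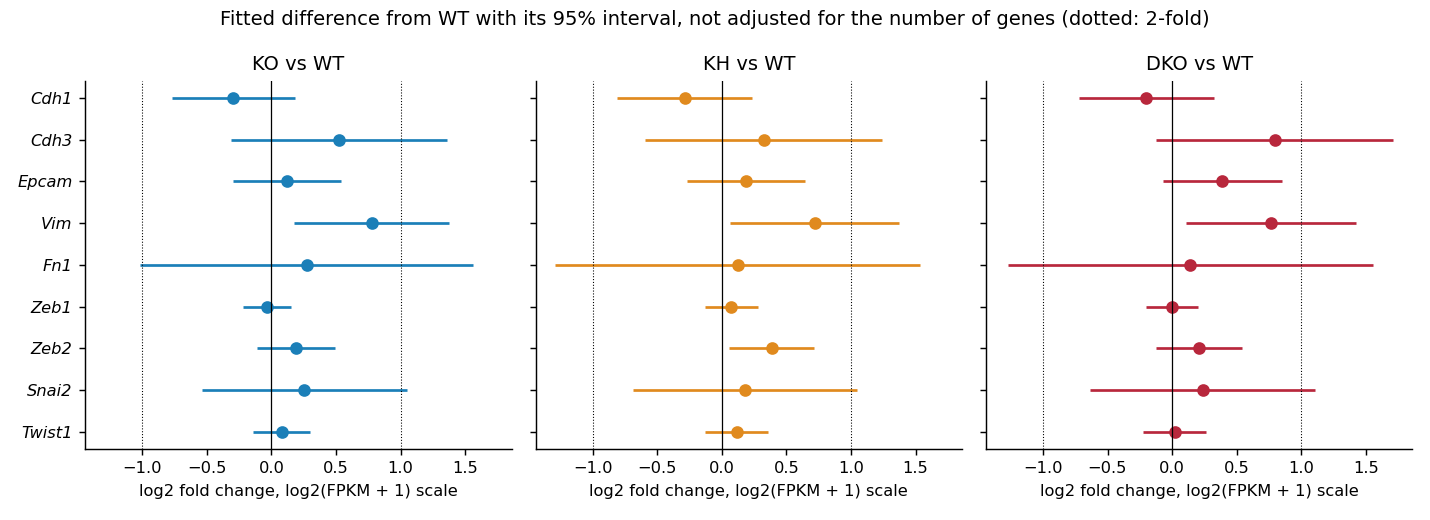
Fitted difference of KO, KH and DKO from WT on the log2(FPKM + 1) scale (x axis) for the 9 members tested, with the 95% interval of each fit, and dotted lines at a 2-fold change. Vim lay to the right of 0 in all 3 panels (0.78, 0.72 and 0.77), Cdh1 to the left (-0.30, -0.29 and -0.20), and Fn1 had the widest intervals. The short intervals of Zeb1, Zeb2 and Twist1 partly reflect the pseudocount, which compresses low genes.

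Counting libraries that do not overlap gave a similar view. Both DKO libraries were above both WT libraries for 4 of the 9 tested members (Cdh3, Epcam, Vim and Zeb2) against 27.8% of all genes, and below them for 1 (Cdh1) against 26.4%. In KH the libraries were above WT for 3 members (Vim, Zeb2 and Twist1) against 15.3% and below for 1 (Cdh1) against 16.6%. In KO they were above WT for 3 (Cdh3, Vim and Zeb2) against 12.6% and below for 0 against 12.1%. All 7 knockout libraries were above both WT libraries for Vim and Zeb2, as for 5.07% of all genes, and below for 0 members, as for 5.08% of all genes. With 2 WT libraries such an arrangement is common, and the comparisons share those 2 libraries.

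The spread between embryos of 1 genotype was set against that between genotype means. For 6 of the 10 genes (Cdh1, Cdh3, Fn1, Zeb1, Snai2 and Twist1) the largest ratio between 2 libraries of the same genotype exceeded the ratio between the highest and the lowest genotype mean. Single libraries of the widest genotype are here compared with averages, which favours the spread within a genotype. For Epcam and Vim the ratios were nearly equal (1.31 and 1.31 for Epcam, 1.75 and 1.75 for Vim). For Zeb2 and Cdh2 the genotype means differed more, by 1.90 and 2.19 times.

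Within a library, the ratio of 2 genes is free of scaling between libraries. The level of Vim was 0.280 and 0.194 of that of Cdh1 in the WT libraries, 0.624, 0.710 and 0.276 across the KO libraries, 0.472 and 0.476 in the KH libraries, and 0.463 and 0.460 in the DKO libraries. The 4 KH and DKO libraries were thus within a narrow range above WT, while KO 3 fell between the 2 WT libraries. The ratio of Epcam to Cdh1 was 0.302 and 0.233 in the WT libraries, 0.415, 0.427 and 0.254 across the KO libraries, 0.340 and 0.403 in the KH libraries, and 0.403 and 0.402 in the DKO libraries, so that KO 1, KO 2 and KH 2 were as high as DKO and KO 3 lay between the WT libraries. Cdh3 to Cdh1 was 0.103 and 0.0906 in WT, and ranged from 0.107 (KH 2) to 0.276 (KO 1) in the knockout libraries, all above WT. A ratio shows unequal levels of the pair and not which of its genes differs.

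**Figure D3:**
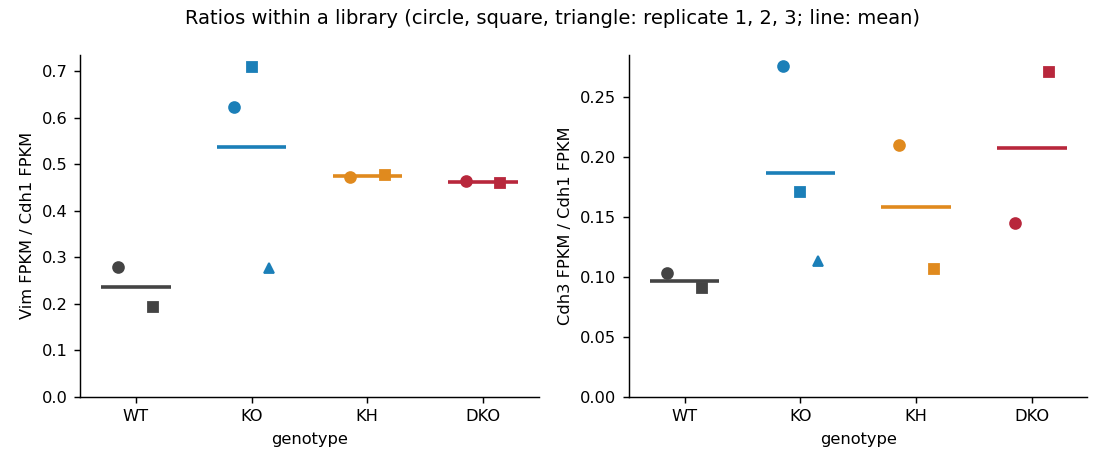
Ratio of Vim to Cdh1 (left) and of Cdh3 to Cdh1 (right) within each library, both from FPKM; points are libraries, by genotype, and lines are means. The Vim ratio was at 0.460 to 0.476 in the 4 KH and DKO libraries, against 0.280 and 0.194 in WT and 0.276 in KO 3.

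Cdh3, Fn1 and Snai2 varied together among embryos of the same genotype. They were highest in KO 1 among KO, in KH 1 among KH and in DKO 2 among DKO, as were 17.8% of all genes tested, and so was Cdh2, which was too low for the test. These 3 libraries were singled out after their values were seen. The 6 hair follicle markers (Shh, Lhx2, Sox9, Lef1, Edar and Krt17) were also highest within their genotypes in these 3 libraries, and so were 6 of 7 basal keratinocyte markers. Lhx2, a transcription factor of the early hair placode, was at 12.5, 18.0 and 16.1 FPKM in KO 1, KH 1 and DKO 2 and at 3.43 to 6.26 FPKM in the other 6 libraries. In contrast, 5 of 7 suprabasal markers were lowest within their genotypes in those 3 libraries, an order whose share over all genes was not counted. The summed level of the suprabasal list was 55007 to 67887 FPKM in WT, 26045 to 74414 in KO, 31234 to 48636 in KH and 30327 to 46589 in DKO, and that of the hair follicle list was 404 to 481, 383 to 706, 370 to 649 and 570 to 662 FPKM.

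**Figure D4:**
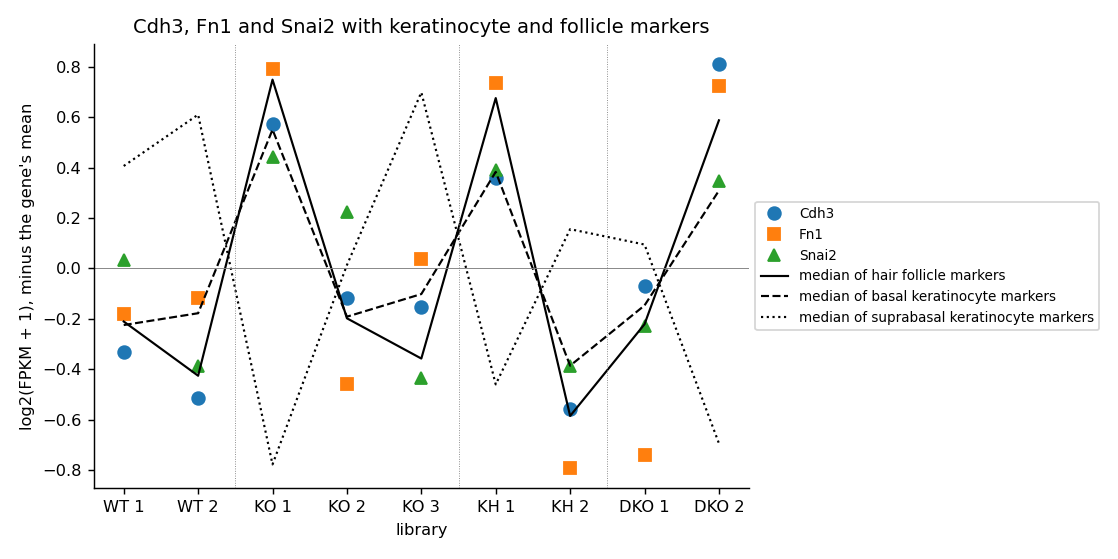
Levels of Cdh3, Fn1 and Snai2 (points) in the 9 libraries as log2(FPKM + 1) minus the gene's mean, with the median of the hair follicle (solid), basal (dashed) and suprabasal (dotted) keratinocyte markers on the same scale. KO 1, KH 1 and DKO 2 are high in the 3 genes and in follicle and basal markers and low in suprabasal markers.

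Without these 3 libraries KH and DKO are left with 1 library each, and the log2 difference of DKO 1 from WT was -0.59 for Fn1, -0.05 for Snai2 and 0.35 for Cdh3, against 0.14, 0.24 and 0.79 with all libraries. Since the libraries left out were those highest in the 3 genes, lower values follow from that choice and are given as a description. The part that the mix of epidermal layers and follicles has in the levels of Cdh3, Fn1 and Snai2 was not tested, and in such bulk samples fewer cells of a type and less RNA per cell cannot be told apart.

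Vim and Zeb2 are also made by cell types that sit in or under the epidermis, and the marker lists of these types are given beside them. Of 8 melanocyte markers, 8 had a positive log2 difference in DKO vs WT (median 1.08), 4 of them at an unadjusted p below 0.05 and 0 called, where 52.4% of all genes were positive and 13.8% were below that p. Dct, an enzyme of pigment synthesis, averaged 22.0 ± 0.749 FPKM in WT and 72.5 ± 37.5 in DKO (log2 difference 1.58 ± 0.47, adjusted p = 0.207). The summed level of the melanocyte list was 48.4 to 54.4 FPKM in WT, 75.7 to 95.7 in KO, 64.1 to 165 in KH and 102 to 224 in DKO, so that, as for Vim, all 7 knockout libraries were above WT. The sum over the 11 immune cell markers was 28.0 to 53.9 FPKM in WT, 48.4 to 127 in KO, 47.6 to 170 in KH and 51.3 to 118 in DKO. Tyrobp, a signalling adaptor of myeloid cells, was at 20.2 and 10.6 FPKM in the WT libraries, 22.0, 48.4 and 17.3 FPKM across the KO libraries, 15.5 and 52.5 FPKM in the KH libraries and 37.3 and 19.5 FPKM in the DKO libraries, so that each knockout genotype overlapped WT. Of the 10 immune markers tested, 9 were positive in DKO vs WT (median 0.78, 2 at an unadjusted p below 0.05) and all 10 in KH vs WT (median 0.84) and KO vs WT (median 0.60), and 0 were called. Of the 11 listed, 10 averaged at least 1 FPKM, and the exception was Cd207, a marker of Langerhans cells, which was at 0 in 8 of 9 libraries. Whether cells of that lineage were present in these embryos was not tested.

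The sum of the 12 dermal fibroblast markers was 301 to 341 FPKM in WT, 454 to 591 in KO, 428 to 558 in KH and 419 to 425 in DKO, all knockout libraries being above WT. Postn, a matrix protein, and Dcn, a small proteoglycan, made up most of it, and both are also made outside fibroblasts. Without Postn the sum was 125 to 129.99 FPKM in WT, 147 to 248 in KO, 107 to 232 in KH and 106 to 153 in DKO, so that KH and DKO had libraries on both sides of WT, whereas in the fit the 10 markers tested were all positive in KO vs WT (median 0.59) and KH vs WT (median 0.24), and 6 were positive and 4 negative in DKO vs WT (median 0.06). The defining fibroblast receptors Pdgfra and Pdgfrb averaged under 0.1 FPKM, and the type I collagen gene Col1a1 was at 0.112 to 0.290 FPKM in 8 libraries and at 2.65 FPKM in KO 1. Of 8 endothelial markers, 6 averaged under 0.1 FPKM. The part of melanocytes, leukocytes or fibroblasts in the levels of Vim and Zeb2 was not tested.

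**Figure D5:**
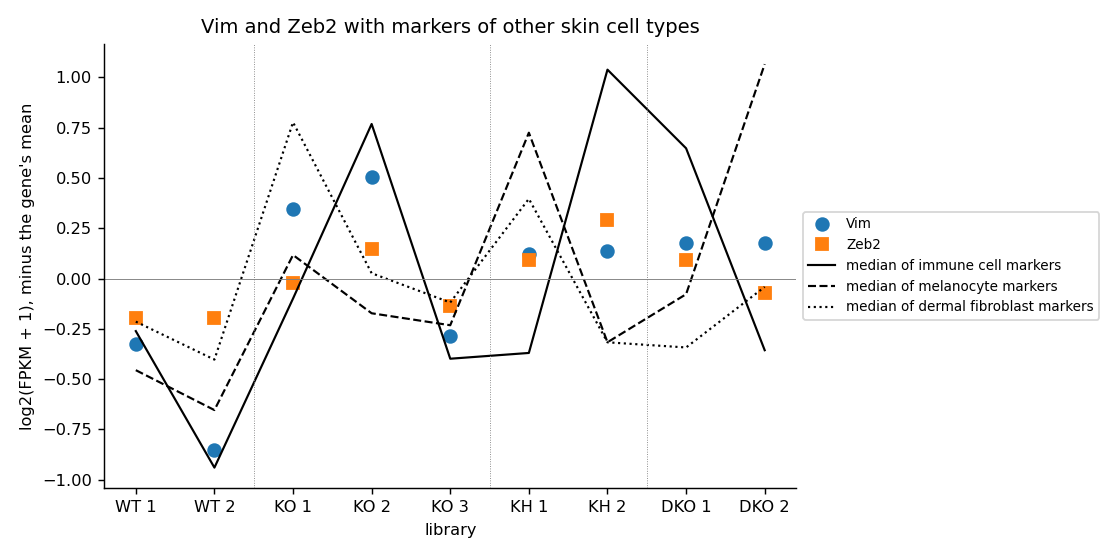
Levels of Vim and Zeb2 (points) in the 9 libraries as log2(FPKM + 1) minus the gene's mean, with the median of the immune cell (solid), melanocyte (dashed) and dermal fibroblast (dotted) markers that averaged at least 1 FPKM. The 2 WT libraries are the lowest in both genes and in the median of the melanocyte markers, whereas in the medians of the immune and fibroblast markers WT 1 lies above some knockout libraries.

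The wider circuit of epithelial identity and the transition was read from 7 further lists, of which 67 of 77 genes entered the test. Not 1 of these genes was called in any of the 6 comparisons. At an unadjusted p below 0.05, 7 were higher and 6 lower in DKO than in WT, 19.4% of the 67 against 13.8% of all genes. The 11 lists of cell type markers had 70 of 84 genes tested, 0 called, and 8 higher and 3 lower in DKO at that p (15.7%). Of 10 adherens junction partners, 7 had a negative difference in DKO vs WT (median -0.12), 8 in KH vs WT (median -0.29) and all 10 in KO vs WT (median -0.30), where 52.4%, 49.7% and 49.5% of all genes were positive. The 7 suprabasal keratinocyte markers were negative in all 3 comparisons (medians -0.54, -0.55 and -0.54), and 5 of the 10 partners were, like 5 of those 7 markers, lowest within their genotypes in KO 1, KH 1 and DKO 2. How many of all genes were lowest in those libraries was not counted. The part of the suprabasal layers in the levels of the partners was not tested. Jup (plakoglobin), which links cadherins to the cytoskeleton, averaged 552 ± 167 FPKM in WT and 332 ± 2.51 in DKO (log2 difference -0.70 ± 0.38, adjusted p = 0.446). Ctnnb1 (beta-catenin) was at 268 ± 17.4 and 264 ± 63.2 FPKM.

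Of 12 epithelial transcription factors, 6 were positive and 6 negative in DKO vs WT (median -0.01), and 2 were positive and 10 negative in both KO vs WT (median -0.07) and KH vs WT (median -0.10). Grhl1, a Grainyhead factor of the differentiating epidermis, was at 125 ± 9.50 FPKM in WT and 42.3 ± 1.03 in DKO, with KO (86.2 ± 31.0) and KH (84.8 ± 31.6) between them. Both DKO libraries, at 43.0 and 41.6 FPKM, were below all others, and the difference of -1.54 ± 0.37 had an adjusted p of 0.136 in limma. For DKO epidermis the paper reports skipping of a Grhl1 exon and lower Grhl1 RNA by real-time RT-PCR. It links them through decay of the skipped transcript, which was not tested here. Klf4, a factor of barrier formation, was at 254 ± 29.8 FPKM in WT and 174 ± 7.06 in DKO (adjusted p = 0.467). Of 15 epithelial surface and simple keratin genes, 6 were positive and 9 negative in DKO vs WT (median -0.15), 3 and 12 in KH vs WT (median -0.28) and 4 and 11 in KO vs WT (median -0.13), with Rab25 at 558 ± 3.70 FPKM in WT and 584 ± 130 in DKO.

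Most other transcription factors of the transition were near 0 in every library. Of 11 listed, 7 averaged under 0.1 FPKM (Snai1, Snai3, Twist2, Foxc2, Prrx1, Prrx2 and Gsc). The E proteins Tcf3 and Tcf4, which partner with Twist factors, were at 23.5 ± 2.56 and 4.48 ± 0.423 FPKM in WT and at 34.5 ± 8.73 and 4.02 ± 0.958 in DKO, neither called. Klf8, a Krüppel-like factor named after its values were seen, was at 1.79 and 2.70 FPKM in the WT libraries and at 0.666 to 1.53 FPKM in the 7 knockout libraries, all below WT, with log2 differences of -0.86 ± 0.22 in DKO (adjusted p = 0.153), -0.63 ± 0.20 in KO (adjusted p = 0.853) and -0.59 ± 0.22 in KH (adjusted p = 0.980). Among the other cadherins listed only Cdh13, which lacks a cytoplasmic tail, averaged above 1 FPKM, at 2.63 ± 0.391 in WT and 3.79 ± 1.26 in DKO.

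Of the effector genes of the transition, 8 of 11 tested were positive in KH vs WT (median 0.08) and in KO vs WT (median 0.15), and 9 in DKO vs WT (median 0.26), 4 being higher and 2 lower at an unadjusted p below 0.05, and 0 called, against 52.4% of all genes positive and 13.8% below that p. S100a4, a calcium-binding protein also called fibroblast-specific protein, was at 10.3 and 5.75 FPKM in the WT libraries, 16.0, 36.8 and 12.8 FPKM across the KO libraries, 8.78 and 60.5 FPKM in the KH libraries and 64.9 and 44.1 FPKM in the DKO libraries. Both DKO libraries were above all WT and KO libraries, and the log2 difference of 2.64 ± 0.79 from WT had an adjusted p of 0.208. Its highest library in each genotype (WT 1, KO 2, KH 2 and DKO 1) was also the highest in the summed immune cell markers. The share of all genes with this order was not counted, and the part of immune cells in the level of S100a4 was not tested. Tgfbi, a matrix protein induced by TGF-beta, was at 14.5 ± 2.05 FPKM in WT, 21.3 ± 5.44 in KO, 24.3 ± 3.50 in KH and 30.2 ± 2.12 in DKO (DKO vs WT 1.01 ± 0.25, adjusted p = 0.144). Of the TGF-beta pathway itself, 6 of 9 genes were positive in DKO vs WT (median 0.29) and 7 in KH vs WT (median 0.23) and KO vs WT (median 0.14), and 7 of the 8 that averaged at least 1 FPKM were highest in KO 1, KH 1 and DKO 2 within their genotypes. The most abundant of them, Smad2 and Smad4, were at 16.9 ± 2.99 and 13.1 ± 0.765 FPKM in WT and at 11.2 ± 2.19 and 11.2 ± 3.70 in DKO.

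The genes with the most similar profile over the 9 libraries were sought among 12197 genes averaging at least 1 FPKM, by the root mean square difference of mean-centred log2(FPKM + 1). For Cdh1 they were Prpf6 (0.064), Dnajc25 (0.066) and Rbms1 (0.067), where the profile of Cdh1 itself had a root mean square of 0.187. For Cdh3 they were Ywhah (0.123), Kif20a (0.124) and Ccna2 (0.125), against 0.452 for Cdh3, and for Fn1 Ccnd2 (0.141), Mcm4 (0.178) and Frem2 (0.184), against 0.589. For Epcam they were Abcd4 (0.042), Gas8 (0.065) and Tmem194b (0.071), against 0.178. For Vim they were Rnaset2b (0.085), Rnaset2a (0.091) and Ctsz (0.123), against 0.392, and the values of the 2 Rnaset2 copies are uncertain because near-identical genes share reads. The profiles share libraries and depth, and are given as a description.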

How the data were processed

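Epidermal RNA of 9 E18.5 embryos of 4 genotypes was compared. Per the labels and the study's methods, the authors used TopHat v1.4.1 to place stranded read pairs on mm10 and Ensembl transcripts, and Cuffdiff v2.2.0 gave the deposited FPKM per gene and library, with 0 columns of single libraries unmapped. The Cuffdiff scaling options are not given in the sources used here. The deposited FPKM are not counts. In genes with 1 transcript of at least 1500 bases (GENCODE M21), 81.5% to 86.1% of values of up to 4 fragments lay within 0.1 fragment of a whole number, which gave the depth.

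Genes averaging above 0.1 FPKM in at least 1 genotype were fitted as log2(FPKM + 1) with limma 3.58.1 in R 4.3.3, with all 9 libraries, 4 genotype means, an eBayes trend and Benjamini-Hochberg adjustment. A call needed an adjusted p below 0.05 and genotype averages more than 2-fold apart, thresholds taken from the study. With Cuffdiff the study reported more genes in WT vs DKO, most of them lower in DKO, whereas limma called 123 (81 higher). Fold changes on this scale are too small for low genes, and ± after a log2 difference is the SE. The fit was tested on simulated data. Replicates are embryos. The members and lists were chosen with earlier results of these data known. Genes named beyond the 10 members and Esrp1 and Esrp2 are the 2 highest in FPKM of a list, any called gene of a list, and the 3 nearest profiles of each member averaging at least 10 FPKM; Lhx2, S100a4 in each library, Cd207, Pdgfra, Pdgfrb, Col1a1, Xist, Klf8, 1810019D21Rik, and lists of low or absent genes were named after their values were seen. Tables and plots were made with Python 3.11.15 (pandas 2.3.3, matplotlib 3.10.9). The alternatives were a pseudocount of 0.1 FPKM, no filter, an average of at least 1 FPKM, eBayes without a trend, a fit of 2 genotypes at a time, TPM, median ratio and quantile scaling, arrayWeights, a replicate block, a term for libraries high in Xist, no fold threshold and each library left out; a length correction, a replicate block by the column numbers and leaving out 3 libraries were added after seeing the data. Splicing was not analysed here.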

Additional observations from a re-analysis of the deposited data

How the results depend on the processing

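The count of members called was 0 in all 6 comparisons under each of the 24 alternatives, the replicate block included (0 members called), which is no measure of stability, the lowest adjusted p of any member being 0.127. The term for Xist is set by the 2 WT libraries alone. Of 1229 log2 differences of single members under the alternatives, 1145 kept the sign and 84 turned it, none of the 84 being called under either setting, and the cause was not tested. For Vim against WT no alternative turned the sign, and its adjusted p ranged from 0.127 to 0.975 in DKO, 0.541 to 1 in KH and 0.299 to 1 in KO. The same holds for Cdh1, Cdh3 and Zeb2 in DKO, with log2 differences from -0.27 to -0.036, 0.35 to 1.23 and 0.10 to 0.45. With the replicate block Zeb2 in DKO vs KO was -0.051 and Twist1 in KH vs KO -0.022. By the replicate numbers of the titles, deviations of same-numbered libraries correlated at -0.599 to 0.49 over 12 pairs. The table's columns number the embryos otherwise, and by those numbers the correlations were -0.241 to 0.573 over 6 pairs, the 3 pairs of number 2 lying at 0.347 to 0.573, so that neither numbering had every pair above 0.1 and no shared litter or day is stated. A replicate block by the column numbers, chosen after seeing the data, leaves 1 residual degree of freedom and called 0 of all genes in each comparison by limma (409 in KH vs KO to 2088 in KO vs WT at an unadjusted p below 0.05). With it Epcam was -0.067 in KH vs WT and -0.071 in KO vs WT, Zeb2 -0.063 in DKO vs KO, Fn1 -0.022 and Twist1 0.015 in DKO vs KH, and Twist1 -0.022 in KH vs KO. With a pseudocount of 0.1 FPKM Zeb1 in DKO vs WT was 0.0055. With TPM, Zeb2 in DKO vs KO was -0.0018, Cdh1, Vim, Fn1 and Snai2 in DKO vs KH were -0.10, -0.14, -0.15 and -0.11, and Vim and Snai2 in KH vs KO were 0.093 and 0.064. With quantile normalization Cdh1 and Vim in DKO vs KH were -0.085 and -0.029, and Vim in KH vs KO was 0.014. With the term for Xist, Twist1 in DKO vs WT was -0.038, Epcam and Snai2 in KH vs WT were -0.0018 and -0.031, Zeb1 in KO vs WT was 0.040, Epcam and Zeb1 in DKO vs KO were -0.11 and -0.11, and Epcam, Zeb1 and Twist1 in KH vs KO were -0.31, -0.037 and -0.080. With the length correction Zeb1 in DKO vs WT was 0.014 and Cdh1 in KH vs KO -0.044. Without the 3 libraries highest in hair follicle markers, Fn1, Zeb1 and Snai2 in DKO vs WT were -0.59, 0.062 and -0.049, Cdh3, Fn1 and Snai2 in KH vs WT were -0.13, -0.64 and -0.21, Fn1 in KO vs WT was -0.059, Vim and Twist1 in DKO vs KO were 0.070 and 0.089, and Cdh1 and Vim in KH vs KO were -0.073 and 0.029.

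Leaving out each library in turn, with a genotype left with 1 library assumed to vary like the others, gave ranges that crossed 0 in 27 differences. In DKO vs WT they were -0.073 to 0.072 for Zeb1, -0.050 to 0.089 for Twist1, -0.59 to 0.87 for Fn1 and -0.049 to 0.52 for Snai2. In KH vs WT they were -0.0018 to 0.37 for Epcam, -0.21 to 0.57 for Snai2, -0.13 to 0.78 for Cdh3 and -0.64 to 0.89 for Fn1. In KO vs WT they were -0.11 to 0.040 for Zeb1, -0.067 to 0.31 for Epcam and -0.059 to 0.57 for Fn1. In DKO vs KO they were -0.25 to 0.15 for Vim, -0.87 to 0.60 for Fn1, -0.31 to 0.27 for Snai2, -0.13 to 0.019 for Twist1, -0.066 to 0.095 for Zeb2, -0.031 to 0.094 for Zeb1 and -0.17 to 0.71 for Cdh3. In KH vs KO they were -0.086 to 0.19 for Cdh1, -0.66 to 0.26 for Cdh3, -0.29 to 0.10 for Vim, -0.92 to 0.61 for Fn1, -0.47 to 0.31 for Snai2, -0.022 to 0.11 for Twist1 and -0.057 to 0.19 for Epcam. In DKO vs KH they were -0.75 to 0.78 for Fn1 and -0.33 to 0.45 for Snai2. The Fn1 values in DKO vs WT rest on single libraries, -0.59 without DKO 2 and 0.87 without DKO 1.

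Over all genes, 123 were called in DKO vs WT (81 higher), but 54 without WT 2, 65 without WT 1, 75 without DKO 1, 67 with the replicate block, 55 with the term for Xist, 400 (141 higher) with only the 2 genotypes compared and 556 (250 higher) with arrayWeights, so that most calls were lower in the last 2. In DKO vs KO 108 became 62 without KO 3, 65 without WT 2, KO 2 or DKO 1, 71 without WT 1, 52 with the replicate block and 18 with the term for Xist. In DKO vs KH 72 (65 higher) became 43 without WT 2 and with the replicate block and 33 with only the 2 genotypes compared, and without KH 1 it was 102 (40 higher). In KH vs WT 5 became 33 without KH 1, 12 without WT 2, 10 without WT 1, 8 without KH 2, 2 without DKO 1 or DKO 2, and 1 without KO 2 or KO 3. In KO vs WT 5 became 17 without WT 2, 3 without WT 1, 1 without KO 1, and 0 without KO 2 or KO 3. In KH vs KO 0 became 21 without KH 1, 6 without WT 1 or WT 2, 5 without KH 2 and 3 without KO 1. TPM moved the median of all genes by -0.12 on the log2 scale in DKO vs KH, and the genes called higher were 96 of 177 in DKO vs WT with TPM against 81 of 123, 100 of 149 against 88 of 108 in DKO vs KO, and 74 of 100 against 65 of 72 in DKO vs KH. With a pseudocount of 0.1 FPKM they were 71 of 132, 78 of 112 and 54 of 72. Low members are limited by depth, Twist1 resting on about 2.1 to 15.6 fragments a library.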
